A study of Mus musculus with 12 samples.

Results

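The mitochondrial ribosomal protein genes were described across leukaemic stem cells of 2 mouse leukaemias. Their members were the genes whose symbol begins with Mrpl or Mrps followed by a digit. The letters l and s were given for the large and the small subunit, but Mrps30 encodes a large subunit protein and was counted there, and Mrps18a, Mrps18b and Mrps36 were placed in neither. Each gene was represented by its brightest probe set over the 12 arrays, a probe set being a group of short probes summarized as 1 value. There were 75 such genes among the 10817 genes that passed a filter on dim values, and all 75 passed it. The filter asked for an intensity above 16 on at least 3 arrays, and the lowest intensity of any member on any array was 56.6. The members were covered by 153 probe sets, of which 127 passed.

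Mitochondria carry their own ribosome, which translates the few messages encoded in mitochondrial DNA. These messages specify membrane subunits of the respiratory chain and the ATP synthase. All protein components of this ribosome are encoded in the nucleus, made in the cytosol and imported. Some have counterparts in bacterial ribosomes and others are found only in mitochondria. Musashi2, the product of Msi2, is an RNA-binding protein that regulates stability and translation of its target messages and is known for maintaining blood stem cells and myeloid leukaemias.

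Donor stem and progenitor cells (KLS) were either homozygous for a gene trap in Msi2 (Msi2 Gt/Gt) or wild-type, were infected with leukaemia oncogenes, and were transplanted. The strain label B6;CB-Msi2Gt(pU-21T)2Imeg stood on samples of all 4 groups, the wild-type ones included. The groups were Msi2 mutant and wild-type blast crisis chronic myelogenous leukaemia (bcCML), made with BCR-ABL plus NUP98-HOXA9 and sorted as lineage-negative (Lin-) cells, and Msi2 mutant and wild-type de novo acute myelogenous leukaemia (AML), made with MLL-AF9 and sorted as Lin-Sca1-ckit+ cells. Each group had 3 arrays, called biological replicates in the titles. No sample was treated, and neither the age of the mice nor any pooling of animals is given in the sources used here. Because the oncogenes and the sorting gates differ between the leukaemias, their parts in any difference between AML and bcCML cannot be told apart. RNA was measured in bulk, so that fewer cells of a type and less RNA per cell cannot be told apart either.

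The targeted gene followed the labels. Msi2 had intensities between 487 and 721 on the mutant bcCML arrays, against 2583 to 4579 on the wild-type bcCML arrays. In AML it lay between 52.9 and 86.9 on the mutant arrays, against 181 to 430.3 on the wild-type arrays. The first principal component of all genes, with 76.2% of the variance, separated the leukaemias, and on the second AML mutant array 1 lay at 58.2 while the other 5 AML arrays lay between -20.0 and -1.20. Kit, the receptor used for the AML sort, was measured above the filter level on all 12 arrays. Of the 9 monocyte and macrophage genes, Csf1r, Cd14 and Itgam lay between 4.49 and 5.14 on all bcCML arrays, where the lowest value on any array is 4.49. Ly86 lay between 10.6 and 20.8 there, and Cx3cr1, Adgre1, Lyz2, Ccr2 and Cd68 lay higher, between 74.0 for Cx3cr1 and 1612 for Cd68.

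Promoters of 66 of the 75 members were found in the RefSeq table (build GRCm38.p6), each 250 bases before to 50 bases after the start of the gene. They were searched on both strands for 4 motifs known from housekeeping and mitochondrial genes. Some genes had several promoters, and a gene was counted when any of them held the motif. The ETS motif CCGGAAGT, bound by GABP, stood in 12 members (18.2% of the 66). This compares with 4.31% of all 27025 genes with a promoter and 9.55% of the 8838 of these tested here. The Nrf1 motif also stood in 12 (18.2%), against 5.19% of all genes with a promoter and 12.1% of those tested. The Yy1 motif stood in 5 (7.58%), against 0.995% and 2.56%, and the E-box CACGTG, bound by Myc proteins, stood in 5 (7.58%), against 8.09% and 11.8%. ETS and Nrf1 matches overlapped in none of the windows printed here, while the pair of Nrf1 matches at Mrps26 overlapped each other. These matches are letters in a window and describe no measured binding.

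Windows from 100 bases before to 15 bases after the start, on the strand of the gene, are shown for members on which the results below turn. Capitals mark an ETS match in Mrpl43, Mrpl52 and Mrpl33, an Nrf1 match in Mrpl12, and both kinds in Mrps26. Mrpl11 and Mrpl16 held none of the 4 motifs in these windows. The positions are chr19:4962206-4962320 (+) for Mrpl11, chr19:11770315-11770429 (+) for Mrpl16, chr2:130563657-130563771 (+) for Mrps26, chr19:45006428-45006542 (-) for Mrpl43, chr14:54426809-54426923 (+) for Mrpl52, chr11:120484537-120484651 (+) for Mrpl12 and chr5:31613851-31613965 (+) for Mrpl33.
Mrpl11: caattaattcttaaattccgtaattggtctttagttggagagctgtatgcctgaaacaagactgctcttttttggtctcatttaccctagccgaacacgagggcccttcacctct
Mrpl16: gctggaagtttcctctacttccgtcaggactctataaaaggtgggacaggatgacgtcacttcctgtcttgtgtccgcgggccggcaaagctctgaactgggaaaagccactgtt
Mrps26: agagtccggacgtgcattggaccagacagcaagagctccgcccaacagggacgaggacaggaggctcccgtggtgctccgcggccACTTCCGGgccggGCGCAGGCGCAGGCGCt
Mrpl43: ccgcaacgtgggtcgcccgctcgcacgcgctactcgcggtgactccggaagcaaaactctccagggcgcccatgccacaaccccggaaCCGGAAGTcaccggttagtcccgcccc
Mrpl52: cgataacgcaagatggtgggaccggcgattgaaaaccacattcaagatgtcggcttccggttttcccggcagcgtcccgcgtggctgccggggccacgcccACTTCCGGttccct
Mrpl12: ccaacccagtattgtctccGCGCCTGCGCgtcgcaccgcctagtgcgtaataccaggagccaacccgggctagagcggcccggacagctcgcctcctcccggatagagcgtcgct
Mrpl33: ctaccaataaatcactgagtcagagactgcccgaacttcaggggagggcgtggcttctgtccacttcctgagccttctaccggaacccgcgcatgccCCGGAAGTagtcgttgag

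In AML, most members had a lower estimated level with the Msi2 gene trap, and Mrpl11 and Mrpl16 passed the test. The median log2 difference over the 75 members, Msi2 mutant minus wild-type, was -0.27, against -0.05 over all genes tested. It was negative in 69 members (92%), against 57.1% of all genes. With limma's moderated test and Benjamini-Hochberg adjustment over 10817 genes, 2 members fell past the threshold of 0.05 and 0 rose, where 1.14% of all genes fell, 0.379% rose and 1.52% passed in either direction. At an unadjusted p under 0.05 there were 20 members (26.7%), against 14.2% of all genes. The 3 mutant arrays all lay below the 3 wild-type arrays in 18 members, which is 24% of them, against 11.6% of all genes, and they all lay above in 0, against 5.18%.

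Mrpl11, whose protein forms the base of the stalk where translation factors bind the large subunit, fell in mutant AML. Its intensities were 2569.8, 2604 and 3006 on the mutant AML arrays, against 4250.3, 4066 and 4131 on the wild-type AML arrays. The groups did not overlap, and the log2 difference was -0.61 ± 0.12 (SE, n = 3 each, limma adjusted p = 0.0375). Mrpl16, a large subunit protein near the site where peptide bonds form, fell too. It measured 546, 985 and 942 on the mutant arrays, against 1765, 1847 and 1532 on the wild-type arrays, a log2 difference of -1.10 ± 0.22 (limma adjusted p = 0.0409). AML mutant array 1 was the lowest of all for this gene, and without that array the difference was -0.83 and still past the threshold. Either gene's call lay close to the threshold. Without any of the 3 wild-type AML arrays or the 6 bcCML arrays in turn, 0 members passed, and without any of the 3 mutant AML arrays in turn 1 passed. The adjusted p of Mrpl11 then lay between 0.0387 and 0.141 and that of Mrpl16 between 0.0362 and 0.146.

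Other probe sets of these genes stood beside the chosen ones. Mrpl11 had 2 further probe sets above the filter, which averaged 919 and 1770.4 on the mutant AML arrays, against 1562 and 2595 on the wild-type AML arrays, with log2 differences of -0.76 and -0.57. Mrpl16 had no other. Over the 31 members with another probe set above the filter, 41 of 52 further probe sets had the sign of the chosen one in AML, and their median log2 difference was -0.22.

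The members with the next smallest p values in AML did not pass, and their values are given without a call. Mrpl54, a mitochondria-specific large subunit protein, measured 286, 286 and 307 in mutant AML, against 451, 542 and 419.8 in wild-type AML (log2 difference -0.68 ± 0.15, limma adjusted p = 0.0604). For Mrps26, a mitochondria-specific small subunit protein whose promoter held an ETS match and overlapping Nrf1 matches, the values were 1713, 1373 and 1464 in mutant AML, against 2221, 2257 and 2026 in wild-type AML (-0.52 ± 0.13, adjusted p = 0.0971). Neither gene's groups overlapped. Mrpl43, Mrpl38 and Mrpl52, again mitochondria-specific large subunit proteins, had log2 differences of -0.67, -0.79 and -0.74 with limma adjusted p values of 0.111, 0.115 and 0.121. Mrpl52 had 3 further probe sets above the filter, with log2 differences between -0.90 and -0.81. Among the 6 members with a positive difference, Mrpl19 had the highest, 0.26.

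**Figure D1:**
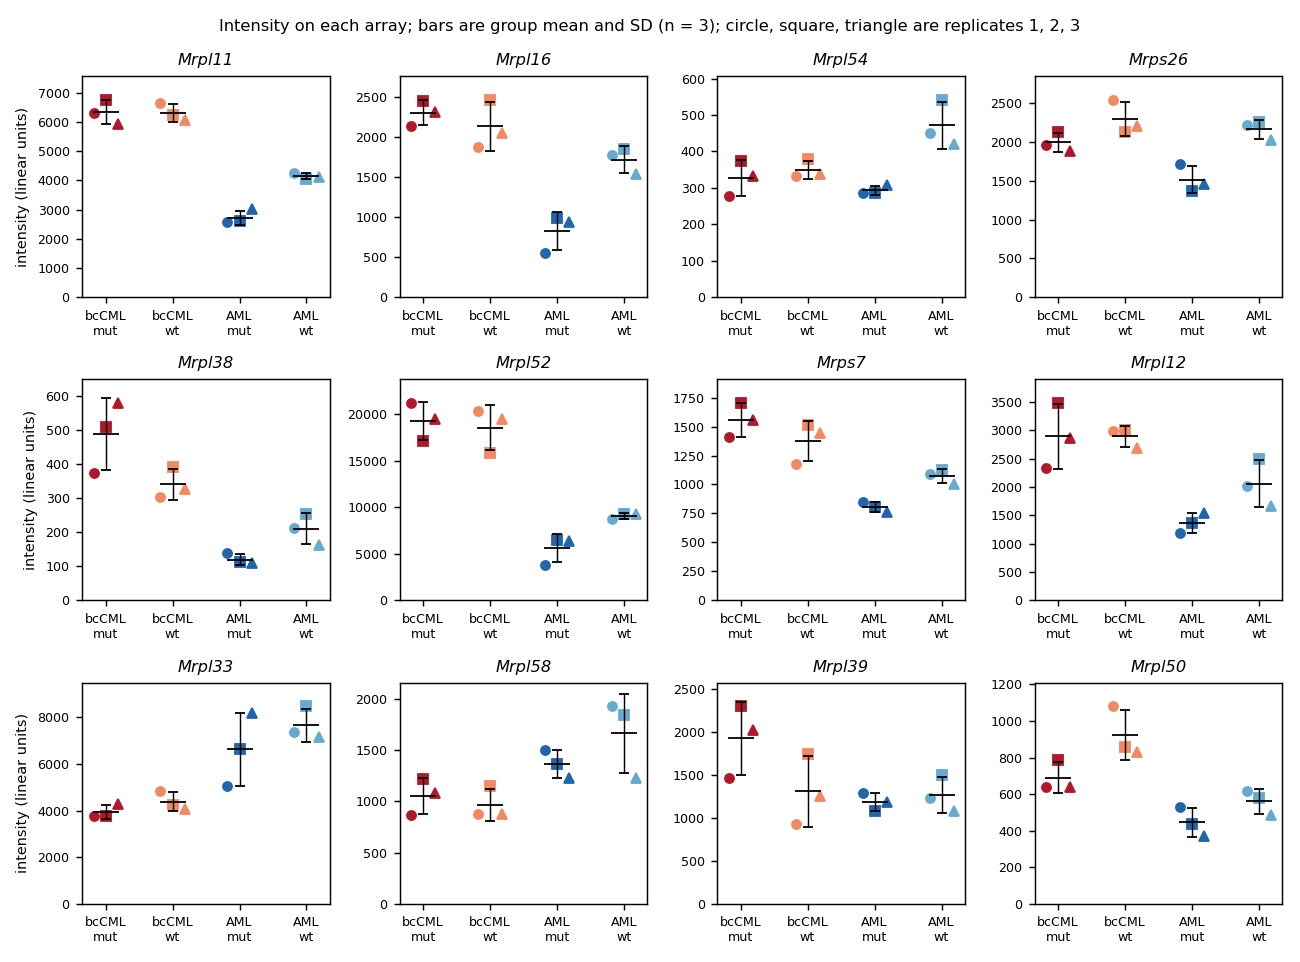
Intensity (linear units, axes from 0) of 12 members on each array, with Msi2 mutant left of wild-type in each leukaemia and bcCML left of AML; horizontal lines are group means and bars 1 SD (n = 3). Mrpl11 and Mrpl16 lie lower on all 3 mutant AML arrays than on all 3 wild-type AML arrays, Mrpl33 lies higher in AML, and scales differ between panels because levels of different probe sets are not comparable.

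The median difference in AML was much the same in all parts of the ribosome. Large subunit members had a median log2 difference of -0.27, with 45 of 48 negative, and small subunit members -0.29, with 21 of 24 negative. Within the large subunit the 29 proteins with a bacterial counterpart had a median of -0.27 and the 19 mitochondria-specific ones -0.29. In the small subunit the medians were -0.29 for 16 proteins with a bacterial counterpart and -0.30 for 8 mitochondria-specific ones. Both genes that passed, Mrpl11 and Mrpl16, encode large subunit proteins with a bacterial counterpart.

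The median over members varied between arrays of a group. Relative to each gene's mean over the 12 arrays, the members' median log2 level was -0.20, -0.30 and -0.32 on mutant AML arrays 1 to 3, against 0.12, 0.16 and -0.21 on wild-type AML arrays 1 to 3. Wild-type AML array 3 thus lay within the range of the mutant arrays, and 70 of the 75 members were below their group mean on it. Without it the median AML difference was -0.38 with 72 members negative, and over all arrays left out in turn the median stayed between -0.38 and -0.22, with 67 to 72 members negative. On the bcCML arrays the members' median was -0.08, 0.30 and 0.17 in mutants, against 0.16, 0.34 and 0.05 in wild-type cells. The medians of all genes stayed between -0.08 and 0.06.

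**Figure D2:**
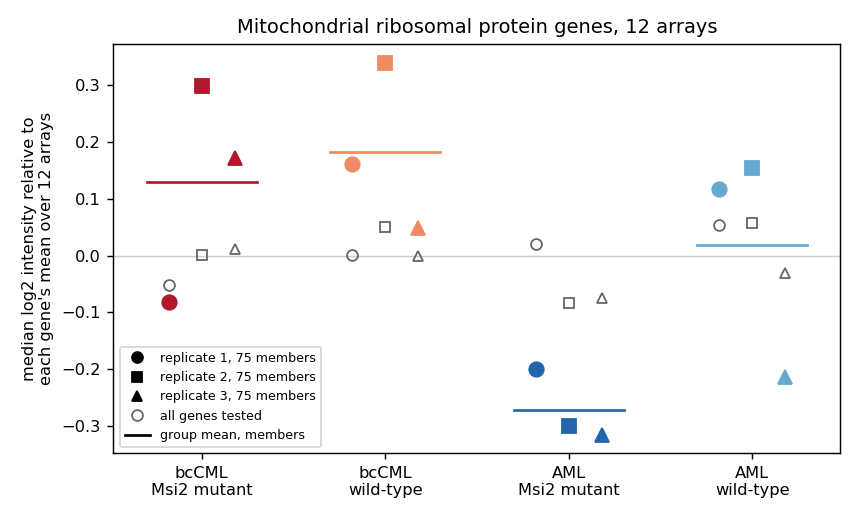
Median log2 intensity of the 75 members on each of 12 arrays, relative to each gene's mean over all arrays (filled symbols, the shape giving the replicate number), with the same median for all 10817 genes tested (open symbols) and the group means of the members (lines). The mutant AML arrays lie between -0.32 and -0.20, and wild-type AML array 3, at -0.21, lies among them.

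Other measures moved between the AML groups as well, and their part in the members' differences was not tested. The granulocyte list (9 of its 10 genes tested) had a summed intensity of 187404 to 216741 on mutant AML arrays, against 106141 to 161126 on wild-type AML arrays. Of its genes 8 had a positive difference and 1, Mmp8, a negative one, with a median of 0.595. In 7 genes all mutant arrays lay above all wild-type arrays, against 5.18% of all genes. Ltf was higher and Mmp8 lower past the threshold with limma, 22.2% of the 9 genes, against 1.52% of all genes. The monocyte and macrophage list (9 of 10 tested) summed to 12236 to 52750 in mutants, against 25549 to 32916 in wild-type AML, with Ly86 lower past the threshold. The progenitor list (8 of 8 tested) summed to 29193 to 35256 in mutants, against 31688 to 36982 in wild-type AML. Of its genes 0 passed with limma and 3 had an unadjusted p under 0.05 (37.5%, against 14.2% of all genes). Flt3 measured 147, 16.6 and 42.5 in mutant AML, against 642, 149 and 674 in wild-type AML (log2 difference -3.09 ± 0.78, limma adjusted p = 0.0926). Cd34 and Gata2, with groups that overlapped, had differences of -2.70 and -1.97 (adjusted p = 0.0946 and 0.284). Of 17 proliferation genes 0 passed with limma in AML, and 0 had an unadjusted p under 0.05. The median log2 difference of the proliferation genes was -0.12, and on the arrays their median level was 0.38, -0.28 and -0.02 in mutants, against 0.19, 0.32 and -0.18 in wild-type AML.

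In bcCML the members' median difference between the genotypes was close to that of all genes. The median log2 difference, Msi2 mutant minus wild-type, was -0.05, against -0.02 over all genes, and 48 of 75 members were negative (64%), against 54% of all genes. With limma 0 members passed, where 0.139% of all genes did, and 3 had an unadjusted p under 0.05 (4%), against 8.32% of all genes. With the replicate number as a block in the bcCML arrays, 0 members and 0.388% of all genes passed, and 2 members had an unadjusted p under 0.05. The genotypes' arrays did not overlap in 3 members, with the mutants lower, against 10.1% of all genes, and in 0 with the mutants higher, against 5.83%. The sign of the median rested on single arrays, since it was 0.03 without mutant bcCML array 1 and also 0.03 without wild-type bcCML array 2. Of 9 granulocyte genes 0 passed with limma in bcCML, while 5 had an unadjusted p under 0.05 (55.6%, against 8.32% of all genes). Their median log2 difference was -1.11, with 7 negative and 2 positive. Of the progenitor and the monocyte and macrophage genes 0 had an unadjusted p under 0.05. The part of these lists in the members' differences was not tested.

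The 5 members with the smallest p values in bcCML are given as values, from the fit without the replicate block. Mrpl39, a mitochondria-specific large subunit protein, measured 1466, 2304 and 2024 in mutant bcCML, against 928, 1745 and 1259.8 in wild-type bcCML, with overlapping groups (log2 difference 0.58 ± 0.25, limma adjusted p = 0.574). The values of Mrpl50, of the same class, were 640.3, 787 and 639 in mutants, against 1081, 858 and 832 in wild-type bcCML, without overlap (-0.42 ± 0.18, adjusted p = 0.574). Mrpl38 stood at 373, 511 and 581 in mutants, against 305, 391 and 327 in wild-type bcCML (0.50 ± 0.22, limma adjusted p = 0.585). Mrpl47 and Mrpl45 had differences of -0.32 and -0.58 (adjusted p = 0.628 and 0.634). Mrpl45 is known to tie the ribosome to the inner membrane at the exit of the nascent chain.

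The mean of the AML and bcCML differences had a median of -0.17 over the members, against -0.04 over all genes, and was negative in 66 of 75 (88%), against 57.2% of all genes. With limma 0 members passed, where 0.471% of all genes did, and 13 had an unadjusted p under 0.05 (17.3%), against 13.7% of all genes. Mrps26 had the smallest p, with a mean difference of -0.36 ± 0.09 (limma adjusted p = 0.126), followed by Mrpl54 (-0.39), Mrpl11 (-0.30), Mrpl16 (-0.49) and Mrpl50 (-0.38), with adjusted p values between 0.139 and 0.219.

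The bcCML difference minus the AML difference asks whether the gene trap moved a gene unequally in the leukaemias. Its median was 0.23 over the members, against 0.03 over all genes, and it was positive in 62 of 75 (82.7%), against 53.5% of all genes. With limma 0 members and 0 of all genes passed, and 7 members had an unadjusted p under 0.05 (9.33%), against 9.37% of all genes. With the replicate number as a block in the bcCML arrays, 0 members and 0.259% of all genes passed, and 10 members had an unadjusted p under 0.05. Mrpl38 had the largest value, 1.29 ± 0.31 (limma adjusted p = 0.187), with 373, 511 and 581 in mutant bcCML against 305, 391 and 327 in wild-type bcCML, and 140.2, 112 and 109 in mutant AML against 213, 255 and 164 in wild-type AML. Mrpl16 followed with 1.22 ± 0.31 (adjusted p = 0.229) and Mrpl11 with 0.61 ± 0.17 (adjusted p = 0.259). Mrps7, a protein of the head of the small subunit, and Mrpl52 had 0.60 and 0.80 (adjusted p = 0.369 and 0.413). A difference between the leukaemias in the effect of the gene trap was therefore not called for any member. Of 9 granulocyte genes 8 had an unadjusted p under 0.05 in this contrast (88.9%, against 9.37% of all genes). Their median was -2.05, and 0 passed with limma. The part of these genes in the members' values was not tested.

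**Figure D3:**
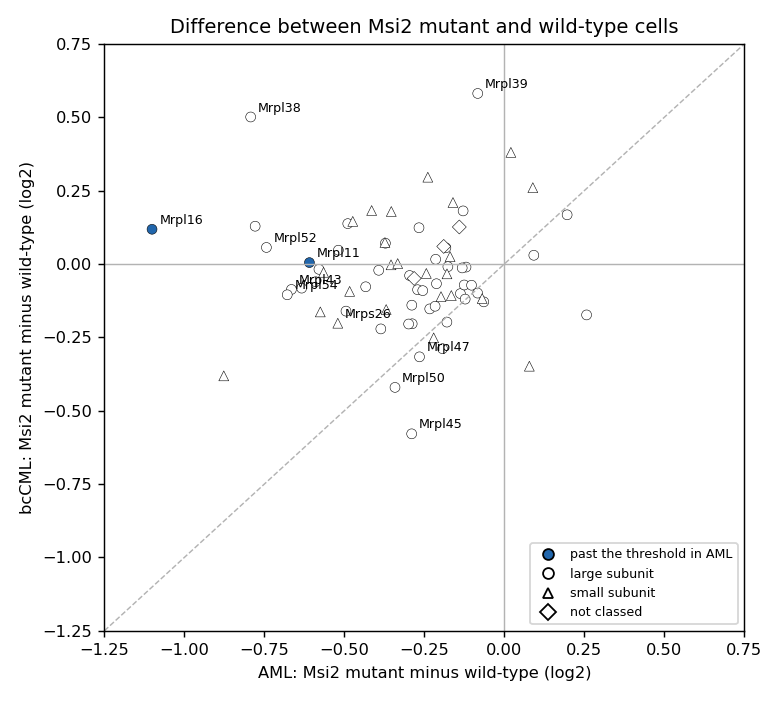
Log2 difference between Msi2 mutant and wild-type cells in AML (x axis) and in bcCML (y axis) for each of the 75 members; shapes give the subunit, filled points passed the threshold in AML, and the dashed line marks equal differences. In AML 69 members lie left of 0, and in bcCML 48 lie below 0.

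Between the leukaemias, a smaller share of members than of all genes passed in wild-type cells, and most that did were higher in bcCML. The median log2 difference, wild-type bcCML minus wild-type AML, was 0.16 over the members, against 0.00 over all genes, and 56 of 75 were positive (74.7%), against 50.3% of all genes. With limma 8 members (10.7%) were higher in bcCML, against 17.7% of all genes, and 3 (4%) were lower, against 19.3%. In either direction 14.7% of members passed, against 36.9% of all genes. These counts depended on single arrays. Without wild-type bcCML array 3, 7 members passed, and without wild-type AML array 3 the median was 0.03 and 5 members were higher and 4 lower.

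The large subunit, which holds 48 of the 75 members, supplied 7 of the 8 genes that were higher in wild-type bcCML. These are 14.6% of its members, against 17.7% of all genes. Mrpl11 measured 6655, 6236 and 6071 in wild-type bcCML, against 4250.3, 4066 and 4131 in wild-type AML (log2 difference 0.61 ± 0.12, limma adjusted p = 0.00265). The brightest member, Mrpl52, reached 20376, 15773 and 19503 in wild-type bcCML, against 8737, 9280.0 and 9282 in wild-type AML (1.02 ± 0.21, adjusted p = 0.00342). In these genes every wild-type bcCML array lay above every wild-type AML array. The same held in 19 of the 75 members and in 2771 of the 10817 genes tested. The other 6 were Mrpl9, Mrpl50, Mrpl47, Mrpl3, Mrps27 and Mrpl38, with log2 differences between 0.56 and 0.75 and adjusted p values between 0.00559 and 0.0262. Mrpl9, Mrpl47 and Mrpl3 have bacterial counterparts, while Mrps27 is a mitochondria-specific small subunit protein of the RNA-binding PPR family. The calls of Mrpl3, Mrps27 and Mrpl38 were lost without wild-type AML array 3, where their adjusted p values were 0.0561, 0.059 and 0.089. Mrpl3 was also lost without wild-type AML array 2 or wild-type bcCML array 1 or 3, with adjusted p values between 0.0572 and 0.0744. Mrps27 was also lost without wild-type bcCML array 2 (0.0787), and Mrpl38 without wild-type AML array 1 or wild-type bcCML array 2 or 3 (0.0582 to 0.0871). With the mean of their probe sets Mrpl3 and Mrpl38 did not pass either (adjusted p = 0.0597 and 0.126).

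The 3 genes lower in wild-type bcCML also encode large subunit proteins, 6.25% of that subunit's 48 members, against 19.3% of all genes. Mrpl33, a small protein near the exit site for transfer RNA with an ETS match in its promoter, measured 4844, 4248 and 4048 in wild-type bcCML, against 7350.3, 8475 and 7154 in wild-type AML (-0.81 ± 0.18, limma adjusted p = 0.00566). A dimmer second probe set of Mrpl33 had a difference of 0.19, and with the mean of both probe sets the adjusted p was 0.163. Mrpl58, a peptide release factor that frees stalled mitochondrial ribosomes, stood at 879.6, 1148 and 875 in wild-type bcCML, against 1929, 1844 and 1224 in wild-type AML (-0.77 ± 0.21, adjusted p = 0.0163). Mrpl54 differed by -0.42 ± 0.15 and passed only narrowly (adjusted p = 0.0497). The call of Mrpl58 was lost without wild-type AML array 1 or 2 or wild-type bcCML array 1 or 3 (adjusted p between 0.0532 and 0.0638), and that of Mrpl54 was kept only without wild-type AML array 3 or mutant bcCML array 1 or 2, the adjusted p otherwise lying between 0.0528 and 0.168.

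Among Msi2 mutant cells, 33 of the 75 members were higher in bcCML than in AML. The median log2 difference, mutant bcCML minus mutant AML, was 0.40 over the members, against 0.03 over all genes, and 63 of 75 were positive (84%), against 51.9% of all genes. These 33 passed with limma and make up 44% of the members, against 23.2% of all genes. Lower in bcCML were 2 members (2.67%), against 21.9% of all genes. In either direction 35 members passed (46.7%), close to the 45.1% of all genes. The small subunit had 13 of 24 members higher and 0 lower, with a median of 0.59, and the large subunit had 19 of 48 higher and 2 lower, with a median of 0.36. The remaining gene was Mrps18b, which is in no class. The count of 35 fell to 17 without mutant bcCML array 2, to 19 without mutant bcCML array 3 and to 22 without mutant AML array 2 or 3. The median stayed between 0.34 and 0.48 with any array left out.

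Mrpl11 led this comparison with 6325, 6776 and 5939 in mutant bcCML, against 2569.8, 2604 and 3006 in mutant AML (log2 difference 1.22 ± 0.12, limma adjusted p = 2.04e-05). The largest difference was that of Mrpl38, with 373, 511 and 581 in mutant bcCML, against 140.2, 112 and 109 in mutant AML (2.01 ± 0.22, adjusted p = 4.62e-05). A dimmer second probe set of Mrpl38 had a difference of 0.97. Mrpl52 measured 21208, 17098 and 19440.2 in mutant bcCML, against 3844, 6500.2 and 6418 in mutant AML (1.82 ± 0.21, adjusted p = 6.44e-05). In all 3 genes every mutant bcCML array lay above every mutant AML array. The same held in 38 of the 75 members and in 3135 of the 10817 genes tested. The next were Mrpl16 (1.53), Mrps7 (0.95), Mrpl12 (1.07), Mrps27 (1.14), Mrpl9 (0.78), Mrpl34 (0.87) and Mrps2 (0.73), with limma adjusted p values between 0.000308 and 0.00461.

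The 2 genes lower in mutant bcCML were Mrpl33 and Mrpl19. Mrpl33 measured 3756, 3757 and 4295 in mutant bcCML, against 5040.2, 6660.3 and 8178 in mutant AML (-0.73 ± 0.18, limma adjusted p = 0.00793). Its dimmer second probe set had a difference of -0.17, and with the mean of both the gene still passed. Mrpl19, a large subunit protein with a bacterial counterpart, measured 543, 838 and 699 in mutant bcCML, against 1208, 966 and 855 in mutant AML (-0.55 ± 0.20, adjusted p = 0.0432). Its call was kept only without mutant or wild-type AML array 3 or mutant bcCML array 2, the adjusted p otherwise lying between 0.0535 and 0.154. With the mean of its probe sets the difference was -0.14 and did not pass.

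The differences within wild-type and within mutant cells come from different arrays. Each gene's spread was estimated over all 12 arrays, however, so the calls in the 2 genotypes are not independent. All 8 members higher in wild-type bcCML were also higher in mutant bcCML, which is 100% of the wild-type list and 24.2% of the 33 in the mutant list. Over all genes the genes higher in both were 85.7% of the wild-type list and 65.3% of the mutant list. As a share of all members tested the 8 are 10.7%, against 15.2% of all genes. Mrpl33 was lower in both genotypes, and makes up 33.3% of the 3 genes in the wild-type list and 50% of the 2 in the mutant list, against 80.8% and 71.2% over all genes. It is 1.33% of the members, against 15.6% of all genes lower in both. The difference between the genotypes in this contrast is the same quantity as the difference between the leukaemias in the effect of the gene trap, for which 0 members passed.

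**Figure D4:**
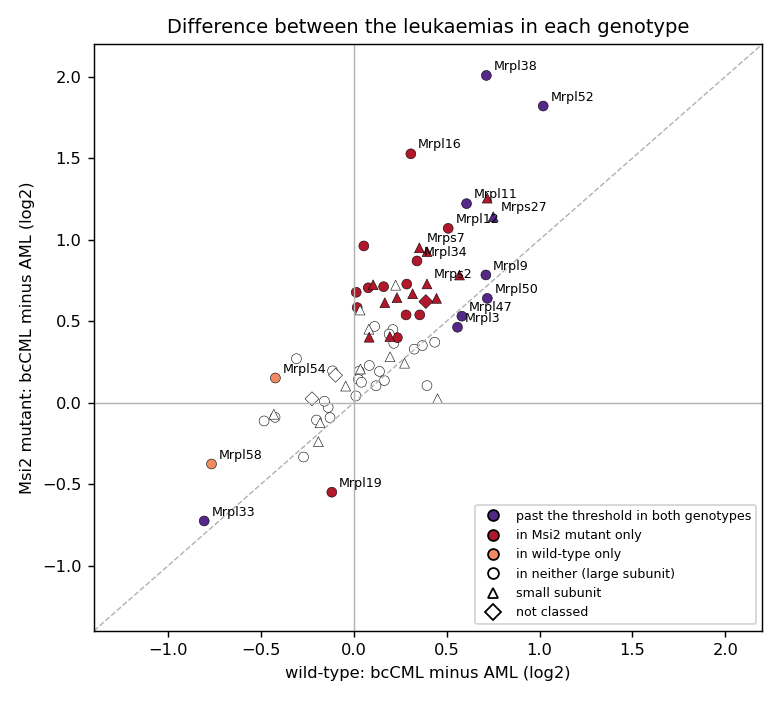
Log2 difference between bcCML and AML in wild-type cells (x axis) and in Msi2 mutant cells (y axis) for the 75 members; colours give the genotype in which the difference passed the threshold, shapes the subunit, and the dashed line equal differences. Of the members, 8 lie higher in bcCML past the threshold in both genotypes and Mrpl33 lies lower in both.

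Cell type markers differed widely between the leukaemias, and their part in the members' differences was not tested. The progenitor list summed to 41281 to 48154 in mutant bcCML and 44233 to 47266 in wild-type bcCML, against 29193 to 35256 in mutant AML and 31688 to 36982 in wild-type AML. Such a sum weighs bright probe sets most, and Gata2 alone measured 14650 to 16527 in bcCML, against 187 to 4901 in AML. The list's 8 genes were split, with 4 positive and 4 negative differences in each genotype. Their median log2 difference, bcCML minus AML, was 0.57 in mutant and -0.0036 in wild-type cells. The summed intensity of the monocyte and macrophage list was 1988 to 2192 in mutant bcCML and 1218 to 1853 in wild-type bcCML, against 12236 to 52750 in mutant AML and 25549 to 32916 in wild-type AML. The granulocyte list summed to 3817 to 16235 in mutant bcCML and 10828 to 34001 in wild-type bcCML, against 187404 to 216741 in mutant AML and 106141 to 161126 in wild-type AML. The megakaryocyte list, with all 5 genes tested, summed to 3856 to 11388 in mutant bcCML and 3852 to 8498 in wild-type bcCML, against 46.1 to 211 in mutant AML and 29.4 to 41.1 in wild-type AML. Of the proliferation genes 0 of 17 passed with limma in either genotype, with 1 at an unadjusted p under 0.05 in each. Their median log2 differences, bcCML minus AML, were -0.05 in mutant and -0.17 in wild-type cells.

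Some members have further roles. Mrpl12, a stalk protein that also binds the mitochondrial RNA polymerase, measured 2331, 3487 and 2866 in mutant bcCML, against 1188, 1370.4 and 1549 in mutant AML. It differed by 0.51 in wild-type cells (limma adjusted p = 0.0658) and by -0.58 between mutant and wild-type AML (adjusted p = 0.202). Mrpl41, also known as a protein that promotes apoptosis, passed in none of the 6 comparisons, with differences of -0.21 in AML and 0.02 in bcCML. Mrps36, a protein also known as a subunit of the oxoglutarate dehydrogenase complex, had -0.19 in AML and 0.06 in bcCML and did not pass either. The S18 paralogs had AML differences of -0.14 for Mrps18a, -0.28 for Mrps18b and -0.07 for Mrps18c. Only Mrps18b among these 3 passed in any comparison, being 0.62 higher in mutant bcCML than in mutant AML (limma adjusted p = 0.0109).

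The members' probe sets covered a wide range of brightness. By mean over the 12 arrays, Mrpl52, Mrpl24, Mrpl51 and Mrpl41 were brightest, between 6349 and 13122, and Mrps27, Mrpl10, Mrpl37 and Mrps5 were dimmest, between 123 and 206. Intensity depends on the probes, so this order gives no order of RNA levels. Of the bright genes Mrpl24 and Mrpl51 passed in no comparison. Mrps5, the dimmest, measured 91.7, 72.0 and 56.6 in mutant AML, against 159, 160.2 and 90.8 in wild-type AML, with a difference of -0.88 ± 0.32 (limma adjusted p = 0.236).

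Msi2 lies on mouse chromosome 11, as do 10 members. Mrpl27 was the only member within 50 tested genes of Msi2, 26 genes away. It differed by -0.29 in AML and -0.20 in bcCML, and neither passed. The chromosome 11 members had a median difference of -0.33 in AML, against -0.24 for the other 65, and of 0.03 in bcCML, against -0.06.

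The rest of the mitochondrial translation apparatus was measured through lists of genes without Mrp symbols. The share of all genes higher in bcCML was 23.2% in mutant and 17.7% in wild-type cells, against which the counts of these lists stand. Of the 4 further ribosomal proteins tested (Dap3, Ptcd3, Chchd1 and Gadd45gip1), all had a negative difference in AML, with a median of -0.29, and 0 passed with limma (1 at an unadjusted p under 0.05). In mutant cells all 4 were higher in bcCML, by 1.24 for Gadd45gip1, 0.77 for Chchd1, 0.68 for Ptcd3 and 0.43 for Dap3, and in wild-type cells 1 was, Ptcd3 by 0.51. Translation factors were negative in AML in 11 of 11, with a median of -0.29 and 0 passing (2 at an unadjusted p under 0.05). In mutant cells 5 of the 11 were higher in bcCML, among them Tufm, the elongation factor that brings transfer RNA (1.36), the recycling factor Mrrf (1.05) and the initiation factor Mtif2 (0.64). Wild-type cells had 1, Guf1 (1.05).

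Assembly factors and rRNA-modifying enzymes were higher in mutant bcCML in 10 of 26 (38.5%, against 23.2% of all genes) and in wild-type bcCML in 6 of 26 (23.1%, against 17.7%), with 0 lower in either, among them Rcc1l (1.26 in mutant and 1.07 in wild-type cells) and Fastkd2 (1.21 and 0.78). Mitochondrial aminoacyl-tRNA synthetases and related enzymes, which charge the transfer RNAs, were higher in mutant bcCML in 10 of 18 (55.6%) and in wild-type bcCML in 8 (44.4%). Aars2 and Fars2 differed by 2.10 and 1.98 in mutant cells and by 2.51 and 1.58 in wild-type cells, and Gatc was lower in mutant bcCML by 0.42 on the log2 scale. The list of mitochondrial DNA expression covers DNA copying, transcription and the handling of the RNA made. Its genes were higher in mutant bcCML in 14 of 21 (66.7%) and lower in 2, and in wild-type cells higher in 10 (47.6%) and lower in 1. They included Twnk, the mitochondrial helicase (1.51 in mutant and 0.60 in wild-type cells), the transcription factor Tfam (0.83 and 0.66) and Polg2, an accessory subunit of the DNA polymerase (-1.30 and -0.86). In AML, 0 genes of these 3 lists passed between the genotypes with limma, with 5, 4 and 4 at an unadjusted p under 0.05. In bcCML 0 genes of any of these lists passed between the genotypes, with 0 to 2 in each list at an unadjusted p under 0.05, and the list medians lay between -0.24 for translation factors and 0.01 for assembly factors.

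Of 11 regulators of such genes, 2 (18.2%, against 23.2% of all genes) were higher in mutant bcCML than in mutant AML. Lower there were 2 (18.2%, against 21.9%). In wild-type bcCML 2 (18.2%, against 17.7%) were higher than in wild-type AML, and 1 (9.09%, against 19.3%) was lower. Nrf1, the factor whose motif was searched above, was lower in bcCML, by -0.64 in mutant and -0.79 in wild-type cells (limma adjusted p = 0.0104 and 0.00423). Mycn was higher in bcCML, by 1.61 and 1.91 (adjusted p = 0.0236 and 0.0127), while Myc did not pass in either. Pprc1, a coactivator of the PGC-1 family, was 1.55 higher in mutant bcCML than in mutant AML (adjusted p = 0.000305) and had a difference of -0.95 between mutant and wild-type AML (adjusted p = 0.0748). In the gene trap comparisons 0 of the 11 regulators passed with limma, with 1 at an unadjusted p under 0.05 in AML and 0 in bcCML. Members with and without an ETS match had median AML differences of -0.32 (12 genes) and -0.25 (54 genes), and those with and without an Nrf1 match -0.17 (12) and -0.27 (54). For mutant bcCML minus mutant AML these medians were 0.23 and 0.41 for ETS, and 0.16 and 0.43 for Nrf1. With and without a Yy1 match they were 0.47 (5 genes) and 0.40 (61 genes). In wild-type cells they were -0.04 and 0.17 for ETS, and 0.11 and 0.16 for Nrf1. These gaps were not tested.

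**Figure D5:**
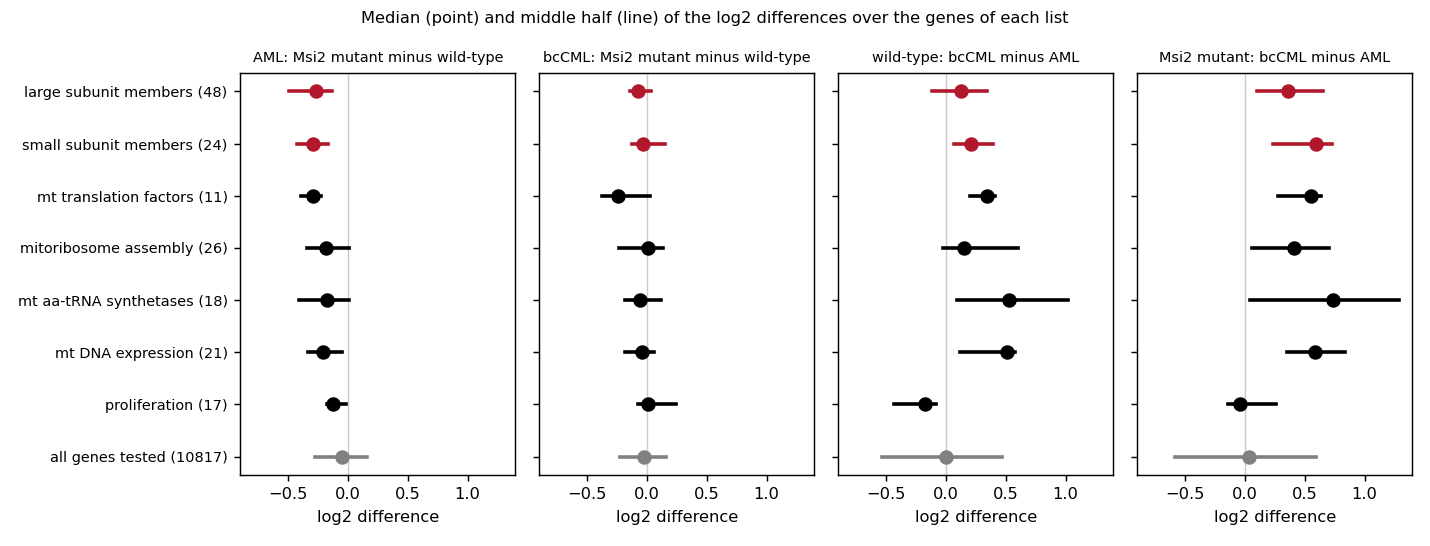
Median (points) and middle 50% (lines) of the log2 differences over the genes of each list in 4 comparisons, with the number of genes tested in parentheses; mitochondrial ribosomal protein genes are in red and all genes tested in grey. Between mutant and wild-type AML the medians of the 2 subunits are -0.27 and -0.29, against -0.05 for all genes.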

How the data were processed

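RNA was measured on 12 Affymetrix mouse arrays. The deposited values are linear intensities per probe set. Per the submitters' processing notes, GCRMA produced them; its version is not given in the sources used here. The method leaves dim probe sets near a low value that differs between probe sets, the lowest being 4.49 in these data. Mmp8, for example, lay between 7.41 and 7.43 on all bcCML arrays. Of 45037 probe sets, 34945 had 1 gene symbol in the annotation table. Values were put on the log2 scale with no pseudocount. Probe sets with log2 above 4 on at least 3 arrays were kept, with the brightest per gene, leaving 10817 genes.

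The 4 group means were estimated over all 12 arrays by limma 3.58.1 (R 4.3.3; 8 residual and 2.19 prior degrees of freedom). Tests were two-sided, with Benjamini-Hochberg adjustment and a threshold of 0.05. Precision is limited by the number of arrays, 3 in each group. Replicates correlated at 0.939 to 0.981. On simulated data for the AML comparison (10817 genes), the fit recovered 43% of genes changed by 1 on the log2 scale and 73% of those changed by 2. Of its 123 calls 7 were false. The changed genes were drawn from all genes tested, and the members' median AML difference of -0.27 is smaller than either change. These rates are therefore not those of the members.

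Same-numbered bcCML arrays of the genotypes deviated from their group means together, with correlations of 0.396, 0.364 and 0.278. Their numbers were therefore taken as pairs, from the data, but only in the fits with a replicate block. The standard errors and adjusted p values of named genes come from the fit of group means, without pairs. In AML the correlations were -0.055, -0.121 and -0.03, and no pairs were taken there or between the leukaemias.

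Members and lists were chosen with earlier results of these data known, and 1 gene of the family is not reported here. Named were, per comparison, up to 10 members per direction past the threshold by smallest p, or the 5 smallest p values where fewer than 5 passed. To these were added the 4 brightest and 4 dimmest members, the S18 paralogs, members with another role, members near Msi2, other ribosomal proteins, and up to 4 members of each other list past the threshold; others were chosen after their values were seen. Alternatives varied the filter, probe set rule, pseudocount, scaling, prior, replicate block and arrays used.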

Additional observations from a re-analysis of the deposited data

How the results depend on the processing

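The count of 2 members lower in mutant AML is the least stable. It was 1 without the filter on dim values and 1 with a replicate block over 12 arrays, 0 in a fit of only the 6 AML arrays (17 members then had an unadjusted p under 0.05) and 0 with the replicate block in that fit (13 members), and 0 to 1 with an array left out. In the fits of the 6 AML arrays 0 of all genes passed. The median AML difference stayed between -0.38 and -0.22 under all alternatives run. For bcCML, the mean effect and the difference in effect, 0 members passed under every alternative run, the replicate block included, as also in a fit with the block in the bcCML arrays only, which was chosen after seeing the data. In wild-type cells 7 to 11 members passed between the leukaemias with an array left out, and their median was 0.03 without wild-type AML array 3. In mutant cells 17 to 35 passed with an array left out, 25 in a fit of the 6 mutant arrays and 8 with the replicate block in that fit. The cause of these shifts was not tested. Fits of 6 arrays have fewer samples behind each gene's spread, and the part of this was not tested either. No estimate of a named member that passed turned its sign.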
